A study of Mus musculus with 16 samples.

Results

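Antigen presentation by MHC class I molecules is described here through 10 genes, chosen by their mouse symbols with earlier results of these data known. They include the heavy chains H2-K1, H2-D1 and H2-Q4, the light chain B2m, and the peptide transporter and loading genes Tap1, Tap2 and Tapbp. The others are the inducible proteasome subunits Psmb8 and Psmb9 and the transcriptional activator Nlrc5. All 10 were found among the 33072 genes of the deposited table. RNA was sequenced from cultures of 4T1 and 67NR, established BALB/c mouse cell lines from a spontaneous mammary carcinoma, of which 4T1 is metastatic and 67NR is not. Each line received DMSO (vehicle) or CIX at 15 µM in medium with serum for 24 h, and CIX is an inhibitor of cytosolic phospholipase A2 alpha derived from an omega-3 fatty acid. Every group held 4 samples (16 in all), and the labels name no introduced allele. Each line stands for a tumor subpopulation in culture, without immune or stromal cells around it. The comparisons asked how the inhibitor moved the genes of the pathway in each line, whether the lines responded differently, and how the lines differed with the same treatment.

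MHC class I molecules display short peptides of the cell's own proteins to CD8 T cells and also engage receptors of natural killer cells. Proteins are cut by the proteasome, in which inducible subunits can replace constitutive ones, and the peptides are pumped into the endoplasmic reticulum by the transporter of Tap1 and Tap2. There tapasin, the product of Tapbp, helps to load them onto a heavy chain bound to beta-2 microglobulin, the product of B2m. NLRC5 is the transactivator of many of these genes, and interferons are strong inducers of the pathway. Tumor cells often carry low levels of class I molecules, and 4T1 cells are widely grafted into BALB/c mice as a model of metastatic breast cancer.

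The promoters of the classical heavy chains hold an NF-kB site next to an interferon response element, followed by a box region that NLRC5 and its partner factors occupy. The stretch of 30 bases from the first to the second of these elements is shown because it is nearly the same in the 3 heavy chain genes, although their values differed. It is the RefSeq sequence of GRCm38.p6, which comes from the C57BL/6 mouse, read 5′ to 3′ on the strand of each gene at chr17:34000429-34000458 (minus strand, H2-K1), chr17:35262923-35262952 (plus strand, H2-D1) and chr17:35379443-35379472 (plus strand, H2-Q4). Capitals mark a kB-like match (GGGANNNNCC) and a short interferon response element (GAANNGAAA), each searched on both strands.
H2-K1: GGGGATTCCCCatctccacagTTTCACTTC
H2-D1: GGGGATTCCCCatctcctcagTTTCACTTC
H2-Q4: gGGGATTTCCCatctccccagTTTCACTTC
H2-K1 and H2-D1 differed at 1 of the 30 positions. H2-Q4 differed from each of them at 2.

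The wider upstream windows of H2-K1 (200 bases, chr17:34000348-34000547, minus strand), H2-Q4 (200 bases, chr17:35379417-35379616, plus strand) and B2m (199 bases, chr2:122147487-122147685, plus strand) are shown so that the order of the elements can be compared between a classical heavy chain, a nonclassical heavy chain and the light chain. Here capitals also mark CCAAT (the letters of the Y box), TGACG (letters found in the X2 box) and, in B2m, the longer interferon response element GAAANNGAAA.
H2-K1: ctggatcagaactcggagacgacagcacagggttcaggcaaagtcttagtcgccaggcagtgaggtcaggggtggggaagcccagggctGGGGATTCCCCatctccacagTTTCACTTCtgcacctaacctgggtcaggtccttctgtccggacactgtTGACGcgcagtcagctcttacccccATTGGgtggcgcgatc
H2-Q4: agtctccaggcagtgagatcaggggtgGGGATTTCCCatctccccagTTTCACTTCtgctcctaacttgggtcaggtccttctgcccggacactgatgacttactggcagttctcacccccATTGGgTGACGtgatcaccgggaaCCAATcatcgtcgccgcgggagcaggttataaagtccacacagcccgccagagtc
B2m: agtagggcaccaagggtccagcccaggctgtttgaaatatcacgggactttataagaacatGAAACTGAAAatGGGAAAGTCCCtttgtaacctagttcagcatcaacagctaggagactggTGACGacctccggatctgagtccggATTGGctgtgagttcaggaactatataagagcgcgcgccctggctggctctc
RefSeq held a window for 8 of the 10 genes, 9 windows in all, each from 250 bases before to 50 bases after a start. A kB-like match lay in the windows of 4 of the 8 genes (H2-K1, H2-D1, H2-Q4 and B2m) and in 20.7% of all 32851 windows. The short interferon response element lay in the windows of the 3 heavy chains and in 7.52% of all windows, and the longer form in that of B2m and in 3.44% of all windows. TGACG was found in 6 of the 8 genes (20.8% of all windows) and CCAAT in 7 (37.4%). The most upstream TGACG lay before any CCAAT match in H2-K1, H2-D1 and B2m, but between CCAAT matches in H2-Q4. The window of Psmb8 held neither of these but a match to TTCNNNGAA, the letters of a STAT site, which 8.30% of all windows held. Tap1 and Psmb9 lie head to head, so that their windows overlap and hold the same TGACG. A match describes the letters only.

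**Figure D1:**
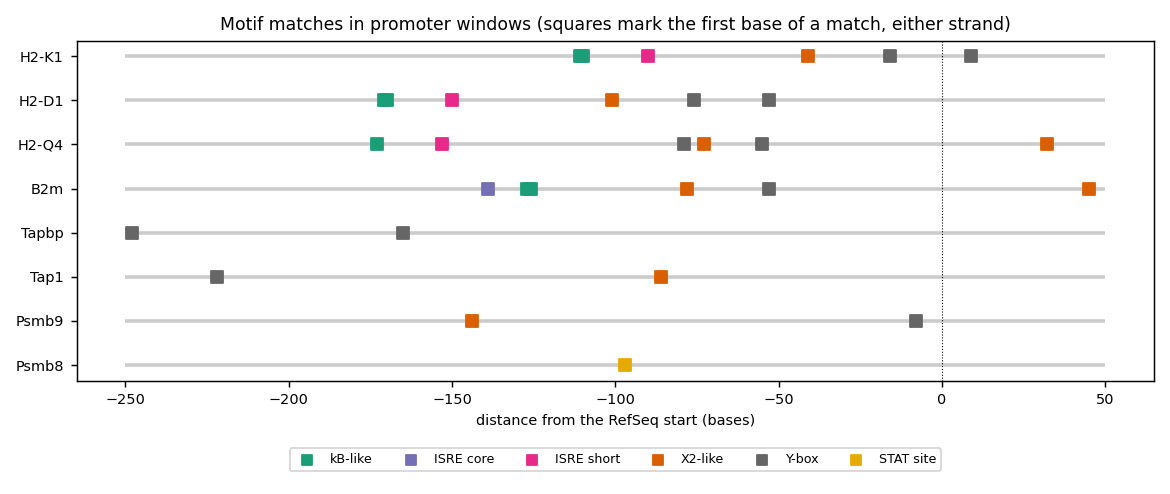
Each line is the promoter window of a gene, and each square is the first base of a motif match, placed by its distance in bases from the RefSeq start (0, dotted). For H2-K1 the more upstream of its 2 starts is drawn. H2-K1, H2-D1, H2-Q4 and B2m hold a kB-like match and an interferon response element upstream of an X2-like and a Y-box match, which Tapbp, Tap1, Psmb9 and Psmb8 do not. The most upstream X2-like match lies before any Y-box match in H2-K1, H2-D1 and B2m. In H2-Q4 it lies at -73, between Y-box matches at -79 and -55.

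The total estimated count lay between 21715700 and 29450629 per sample. At that depth the floor of detection, taken as 3 counts, was worth 0.102 to 0.138 CPM (counts scaled to a library of fixed size). Floors and intervals cover counting error alone, as the libraries held no molecular barcodes. Levels are given as CPM after TMM scaling, or as TPM (the same after division by transcript length) where genes are compared with each other. The labelled mammary carcinoma origin was checked against markers. The 8 epithelial markers summed to between 3043 and 3447 CPM in 4T1 samples but to between 1.07 and 5.90 CPM in 67NR samples, in which Epcam averaged 0.112 CPM with vehicle. Leukocyte markers (10 genes) summed to at most 7.27 CPM and endothelial markers (5 genes) to at most 3.20 CPM in any sample. Pecam1, an endothelial marker, averaged 1.47 and 0.942 CPM in 4T1 cells and 1.53 and 1.55 CPM in 67NR cells, with vehicle and CIX. In 4T1 cells Epcam fell by 0.78 on the log2 scale with CIX (315 ± 3.07 to 186 ± 11.9 CPM, SD, n = 4, SE 0.077, adjusted p = 0.000128 in limma-voom). Krt19 was at 70.9 ± 11.7 and 114 ± 13.6 CPM there and did not pass the threshold (adjusted p = 0.00374 in limma-voom). Krt18 (1075 and 1199 CPM), Krt8 (550.5 and 748 CPM) and Cdh1 (599 and 493 CPM) did not pass it in 4T1 cells either. The leukocyte sum ranged from 4.08 to 7.27 CPM with vehicle and from 1.25 to 2.54 CPM with CIX in 4T1 cells, in the same direction as the heavy chains, and from 2.18 to 2.27 CPM and 1.48 to 3.24 CPM in 67NR cells. Its highest gene in 4T1 cells, Coro1a, was at 3.66 ± 1.17 and 0.866 ± 0.331 CPM there and at 1.35 ± 0.169 and 0.764 ± 0.0954 CPM in 67NR cells, lower with CIX in both lines without passing the threshold in either. Ptprc was at 1.23 ± 0.218 CPM with vehicle and 0.497 ± 0.330 CPM with CIX in 4T1 cells, and at 0.0509 and 0.0816 CPM in 67NR cells. Adgre1 and Laptm5 were at 0 in all 4T1 samples. The part of leukocytes, or of the fall of Epcam, in the results below was not tested. The fibroblast marker sum, nearly all of it Vim, went from 1078 to 1221 CPM with vehicle to 2501 to 2880 CPM with CIX in 4T1 cells and from 4693 to 5623 CPM to 7578 to 8581 CPM in 67NR cells, and its part was not tested either. Pla2g4a, the gene of the drug's target, ranged from 60.0 to 324 CPM in vehicle treated 67NR cells, with sample 13 the highest, and without that sample still 0 members were called in 67NR cells and 2 in the interaction. In bulk RNA, fewer cells of a kind and less RNA per cell cannot be told apart.

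Heavy chain transcripts resemble each other, which limits what each value can say. Of the 31-base words in its annotated transcripts, H2-Q4 shared 38.4% with another gene (19.5% with H2-Q6), H2-D1 26.7% (13.8% with H2-K1) and H2-K1 22.8% (11.1% with H2-D1). The shares were 4.62% for Tapbp, 1.34% for Tap2, 0.825% for Tap1, 0.378% for Psmb8 and 0% for B2m, Psmb9 and Nlrc5. BALB/c mice carry the d haplotype of the H2 complex and the reference mouse the b haplotype, so reads of BALB/c alleles could only be assigned to reference genes. The 3 heavy chains are therefore given singly and also as the summed count of the 29 H2 class I genes of the annotation.

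Ordered by TPM, a scale per length, vehicle treated 4T1 cells expressed H2-D1 highest (1229 TPM), followed by B2m (972 TPM), H2-K1 (765 TPM), Tapbp (434 TPM) and H2-Q4 (127 TPM). Psmb8 (47.0 TPM), Tap2 (27.1 TPM), Nlrc5 (16.4 TPM), Tap1 (11.7 TPM) and Psmb9 (4.46 TPM) were far lower. In vehicle treated 67NR cells, B2m (996 TPM) and H2-D1 (938 TPM) were again above H2-K1 (407 TPM), while Psmb8 (0.0837 TPM) was the lowest of the 10 genes. Both orders depend on the mean transcript length used for TPM (904 bases for H2-D1, 2194 for H2-Q4). The places of the heavy chains also depend on how reads were divided between genes.

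After 24 h of CIX, the levels of H2-K1, H2-D1 and H2-Q4 were below those of all vehicle samples in 4T1 cells and above them in 67NR cells, and of these 6 differences only that of H2-Q4 in 4T1 cells passed the threshold. H2-K1, a classical heavy chain (chr17:33996017-34000347, minus strand), was measured at 464, 645, 562 and 646 CPM in vehicle treated 4T1 samples 3, 7, 11 and 15. It was measured at 306, 400.0, 377 and 334 CPM in CIX treated samples 4, 8, 12 and 16. The groups did not overlap, and the lowest vehicle sample, sample 3, was still above every CIX sample. This is a difference of -0.72 on the log2 scale (SE 0.13, limma-voom adjusted p = 0.0021), which did not pass the threshold of 0.001 taken from the study's methods. In 67NR cells H2-K1 stood at 348, 335, 325 and 304 CPM with vehicle (samples 1, 5, 9 and 13) and at 396, 395, 370.3 and 410.3 CPM with CIX (samples 2, 6, 10 and 14). Again no sample overlapped, but here the CIX samples were the higher ones, by 0.24 on the log2 scale (SE 0.056, adjusted p = 0.0195 in limma-voom). The difference between the responses, 4T1 minus 67NR, was -0.97 (SE 0.15) and passed the threshold (interaction term in limma-voom, adjusted p = 0.000214).

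H2-D1 (chr17:35262730-35267499, plus strand), the other classical heavy chain, gave 699, 894, 935 and 819 CPM with vehicle and 607, 689, 686 and 603 CPM with CIX in 4T1 cells. In 67NR cells it gave 675, 726, 616 and 696 CPM with vehicle and 817, 775, 773 and 863 CPM with CIX. The groups of neither line overlapped, although in 4T1 cells vehicle sample 3 lay just above the highest CIX sample. The log2 differences were -0.38 (SE 0.10, adjusted p = 0.0155) in 4T1 and 0.23 (SE 0.070, adjusted p = 0.0482) in 67NR cells by limma-voom. Their difference of -0.62 (SE 0.13) had an adjusted p of 0.00164 in limma-voom and did not pass the threshold.

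H2-Q4 (chr17:35379617-35385290, plus strand), a nonclassical heavy chain of the Q region, was the member with the largest log2 fold change in 4T1 cells. Its level was 196, 216, 192 and 234 CPM with vehicle and 93.2, 114, 101 and 86.4 CPM with CIX. Every CIX sample was thus well below every vehicle sample. H2-Q4 fell by 1.11 on the log2 scale (SE 0.11, adjusted p = 0.000143 in limma-voom), the only member to pass the threshold in this comparison. In 67NR cells its level was 78.8, 79.4, 72.9 and 73.3 CPM with vehicle and 97.1, 97.4, 103 and 111 CPM with CIX. All CIX samples lay above all vehicle samples there, at a log2 difference of 0.41 (SE 0.066, adjusted p = 0.00483 in limma-voom). The responses differed by -1.52 (SE 0.13), the largest interaction among the members (adjusted p = 4.18e-06 in limma-voom).

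B2m (chr2:122147686-122153083, plus strand), whose product is the light chain shared by all class I molecules, had smaller log2 differences than the heavy chains. In 4T1 cells it was measured at 559, 654, 697 and 611 CPM with vehicle and at 458, 527, 543 and 530.1 CPM with CIX. In 67NR cells the values were 724, 684, 661 and 671 CPM with vehicle and 834, 748, 763 and 744 CPM with CIX. The groups were separate in both lines, lower with CIX in 4T1 and higher with CIX in 67NR. The log2 differences of -0.31 (SE 0.093, adjusted p = 0.0237) in 4T1 and 0.15 (SE 0.060, adjusted p = 0.112) in 67NR did not pass the threshold in limma-voom. Their difference of -0.46 (SE 0.11) had a limma-voom adjusted p of 0.00428. B2m shared no 31-base word with another gene, so its values do not depend on how reads were divided between heavy chains.

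**Figure D2:**
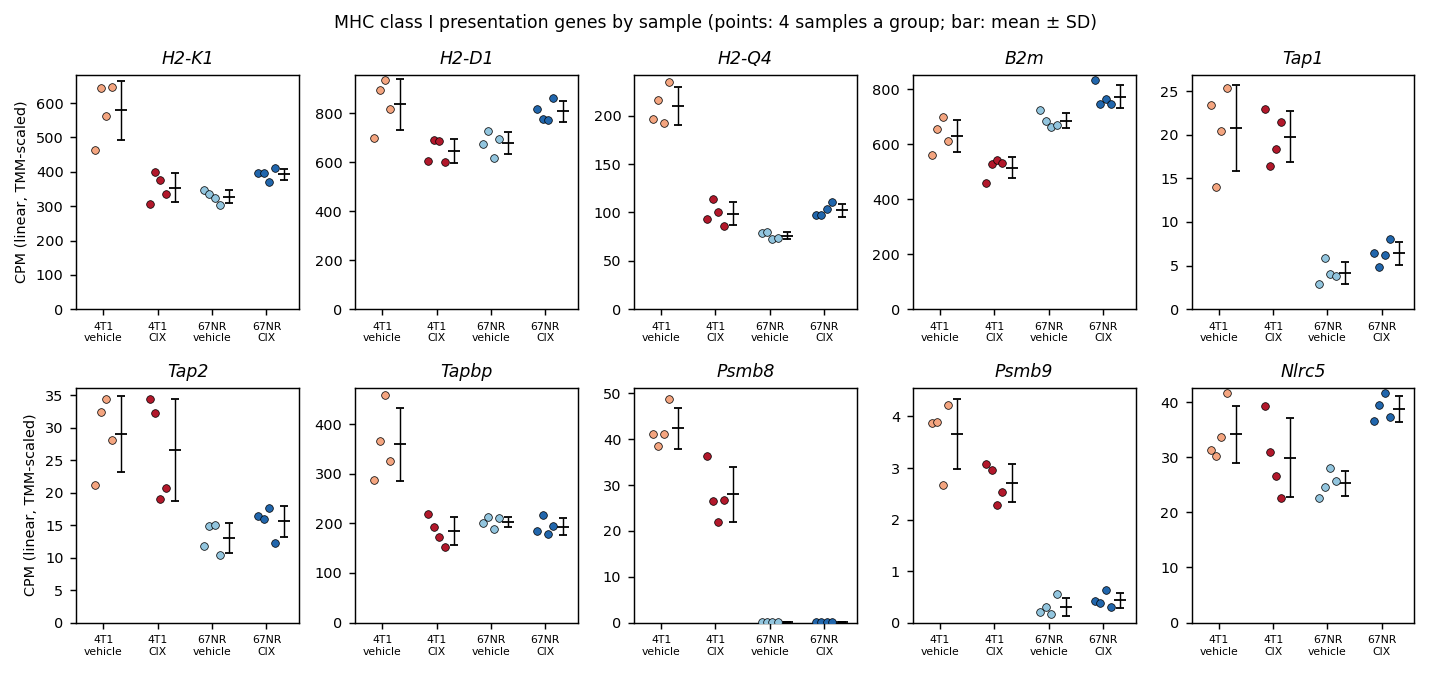
Each panel is a gene, each point a sample (CPM on a linear axis from 0, 4 samples a group), and the bar beside the points is the mean ± SD. H2-K1, H2-D1, H2-Q4 and B2m are lower with CIX in 4T1 cells and higher with CIX in 67NR cells without overlap, and Psmb8 lies at the floor in 67NR cells.

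A sum over the 29 H2 class I genes does not depend on how reads were divided among them, although class I-like genes with other names stay outside it. It includes H2-K2 and H2-Q3, annotated as pseudogenes, and H2-Q5, H2-T10 and H2-Bl, annotated as polymorphic pseudogenes. The sum was 2319, 2922, 2914 and 2972 CPM in vehicle treated and 1549, 1868, 1858 and 1614 CPM in CIX treated 4T1 samples. In 67NR samples it was 1523, 1579, 1415 and 1471 CPM with vehicle and 1779, 1720, 1665 and 1871 CPM with CIX. With vehicle, 4T1 cells (mean 2782 ± 310 CPM, SD, n = 4) thus stood apart from 67NR cells (1497 ± 70.3 CPM), whereas with CIX the ranges of the lines overlapped (1722 ± 165 and 1759 ± 88.3 CPM). The sum fell by 0.71 on the log2 scale in 4T1 cells (SE 0.10, adjusted p = 0.000722 in limma-voom with the genes replaced by their sum), and its log2 difference in 67NR cells was 0.21 (SE 0.057, adjusted p = 0.0325). The responses differed by -0.92 (SE 0.12, limma-voom adjusted p = 6.19e-05). The fall in 4T1 cells was still called without vehicle sample 3, but without any of the other 7 samples its adjusted p lay above 0.001, at most at 0.00357. Within the sum, H2-K1, H2-D1 and H2-Q4 together held 58.5% ± 1.24 of the reads in vehicle treated and 63.8% ± 1.05 in CIX treated 4T1 cells (SD, n = 4). H2-D1 alone went from 30.1% ± 1.90 to 37.6% ± 1.08, and H2-T23, the mouse Qa-1 gene, from 13.3% ± 0.386 to 7.87% ± 0.393.

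Of the loading genes, Tapbp was lower with CIX in 4T1 cells while the transporter genes were not separated. Tapbp (chr17:33915899-33929292, plus strand) was measured at 287, 366, 458 and 325 CPM with vehicle and at 219, 194, 172 and 153 CPM with CIX in 4T1 cells. The groups did not overlap, and the difference of -0.97 (SE 0.16, adjusted p = 0.00138 in limma-voom) missed the threshold. In 67NR cells the ranges were 189 to 212 CPM with vehicle and 178 to 218 CPM with CIX, which overlapped (log2 difference -0.09, SE 0.081, adjusted p = 0.505 in limma-voom). The interaction was -0.89 (SE 0.19, adjusted p = 0.00236 in limma-voom).

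Tap1 (chr17:34187553-34197225, plus strand), a transporter subunit, ranged from 14.0 to 25.4 CPM with vehicle and from 16.4 to 22.9 CPM with CIX in 4T1 cells (log2 difference -0.07, SE 0.20, limma-voom adjusted p = 0.797). In 67NR cells it gave 2.89, 5.91, 4.00 and 3.83 CPM with vehicle and 6.43, 4.87, 6.24 and 8.05 CPM with CIX, a log2 difference of 0.64 (SE 0.23, adjusted p = 0.0923 in limma-voom). Vehicle sample 5 lay among the CIX samples there. Tap2 (chr17:34203527-34216321, plus strand), the partner subunit, ranged from 21.2 to 34.5 CPM with vehicle and from 19.0 to 34.5 CPM with CIX in 4T1 cells (log2 difference -0.17, SE 0.23), and this difference ranged from -0.33 without CIX sample 4 to -0.03 without CIX sample 12. Its 67NR values were 10.3 to 15.0 CPM with vehicle and 12.2 to 17.7 CPM with CIX (log2 difference 0.24, SE 0.16). The adjusted p of Tap2 was 0.57 in 4T1 and 0.325 in 67NR cells by limma-voom.

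Among the 7 other genes of peptide loading and trimming, 2 fell in 4T1 cells and none rose at the threshold, where 9.28% of all genes were called. Tapbpl, which encodes the peptide editor TAPBPR, went from 40.1 ± 4.73 to 19.1 ± 1.64 CPM (SD, n = 4) and fell by 1.08 on the log2 scale (SE 0.13, adjusted p = 0.000264 in limma-voom). In 67NR cells Tapbpl was at 18.6 ± 1.55 CPM with vehicle and 21.5 ± 0.925 CPM with CIX, and its interaction of -1.27 passed the threshold (limma-voom adjusted p = 2.45e-05). Erap1, an aminopeptidase that trims peptides in the endoplasmic reticulum, went from 58.1 ± 6.5 to 23 ± 2.06 CPM in 4T1 cells and fell by 1.35 (SE 0.12, adjusted p = 8.64e-05 in limma-voom). Its 67NR levels were 29.5 ± 1.69 CPM with vehicle and 19.4 ± 1.91 CPM with CIX, so that unlike Tapbpl it was lower with CIX in both lines. The other 5, Calr, Canx, Pdia3, Uggt1 and Bcap31, did not pass the threshold in 4T1 cells, and no gene of the list passed it in 67NR cells.

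The inducible proteasome subunits set the lines apart. Psmb8 (chr17:34197721-34201454, plus strand), which encodes the LMP7 subunit, gave 41.2, 38.5, 41.3 and 48.8 CPM with vehicle and 36.4, 26.6, 22 and 26.8 CPM with CIX in 4T1 cells. The groups did not overlap, although CIX sample 4 came close to vehicle sample 7, and the log2 difference was -0.64 (SE 0.16, adjusted p = 0.00973 in limma-voom). In 67NR cells Psmb8 had only 1, 3, 2 and 1 counts in the vehicle samples and 1, 5, 2 and 2 counts in the CIX samples, at or near the floor, so no change could be measured there. Psmb9 (chr17:34181987-34187764, minus strand), which encodes LMP2, gave 3.87, 3.89, 2.67 and 4.23 CPM with vehicle and 3.07, 2.96, 2.29 and 2.54 CPM with CIX in 4T1 cells. Vehicle sample 11 lay among the CIX samples, and the log2 difference of -0.44 (SE 0.22) had an adjusted p of 0.128 in limma-voom. In 67NR cells Psmb9 had 4 to 13 counts per vehicle sample and 7 to 14 counts per CIX sample.

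Psmb10, the inducible subunit outside the 10 members, had the largest log2 fold change of the proteasome genes in 4T1 cells. It was at 65.6 ± 9.76 CPM with vehicle and 18.2 ± 3.81 CPM with CIX in 4T1 cells, and fell by 1.88 on the log2 scale (SE 0.18, adjusted p = 0.000106 in limma-voom). In 67NR cells it was at 12.0 ± 1.10 and 9.90 ± 1.34 CPM, and its interaction of -1.58 passed the threshold (limma-voom adjusted p = 0.000204). It was the only called gene of the 7 on the proteasome list in 4T1 cells, a share near the 9.28% of all genes. The constitutive counterparts Psmb5, Psmb6 and Psmb7 had log2 differences of -0.23, 0.57 and -0.04 in 4T1 cells, and their adjusted p values were 0.113, 0.00317 and 0.733 in limma-voom.

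Set against its constitutive counterpart on the TPM scale, the mean of each inducible subunit was lower with CIX in 4T1 cells. Psmb10 was at 83.6% ± 19.0 of Psmb7 with vehicle and at 23.3% ± 5.24 with CIX (SD, n = 4), without overlap. Psmb8 was at 28.1% ± 4.75 of Psmb5 with vehicle and at 21.2% ± 3.20 with CIX, and these ranges overlapped (23.6% to 34.7% and 17% to 24.5%). Psmb9 was at 3.27% ± 0.832 of Psmb6 with vehicle and at 1.59% ± 0.155 with CIX, where Psmb6 itself was the higher with CIX. In 67NR cells Psmb8 was at most 0.337% of Psmb5 and Psmb9 at most 0.396% of Psmb6 in every sample, while Psmb10 was at 25.1% ± 2.15 of Psmb7 with vehicle and 20.1% ± 2.74 with CIX. The size of each percentage depends on the mean transcript length used for TPM, although a change between groups within a pair does not. In CPM, vehicle treated 4T1 cells were at 65.6 for Psmb10 against 200 for Psmb7. They were at 42.4 CPM for Psmb8 against 96.5 CPM for Psmb5. The ratios were not tested.

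**Figure D3:**
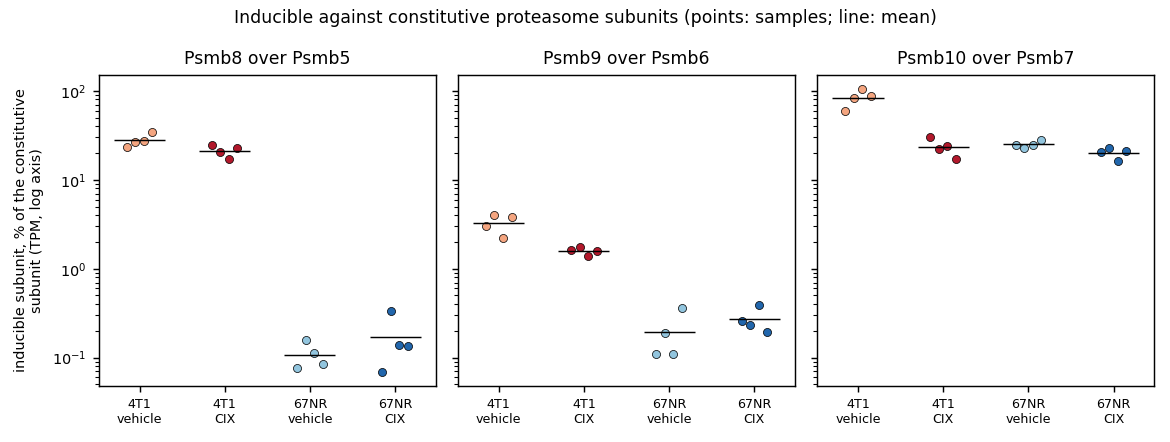
Each point is a sample and each line a group mean of the TPM of an inducible proteasome subunit in percent of its constitutive counterpart, on a log axis. Psmb10 over Psmb7 is at 83.6% in vehicle treated 4T1 cells and between 20.1% and 25.1% in the other groups, whereas Psmb8 over Psmb5 separates the lines. The size of a percentage depends on the mean transcript length used for TPM, so the pairs are not to be ranked.

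Nlrc5 (chr8:94434356-94527272, plus strand), the class I transactivator, did not pass the threshold in either line. It was measured at 31.3, 30.3, 33.7 and 41.7 CPM with vehicle and at 39.4, 31.1, 26.6 and 22.7 CPM with CIX. The groups overlapped, and the log2 difference was -0.23 (SE 0.18, adjusted p = 0.328 in limma-voom), which ranged from -0.39 without CIX sample 4 to -0.12 without CIX sample 16. In 67NR cells it was measured at 22.7, 24.6, 28.1 and 25.7 CPM with vehicle and at 36.6, 39.6, 41.7 and 37.3 CPM with CIX. Every CIX sample was above every vehicle sample there, by 0.60 on the log2 scale (SE 0.091, adjusted p = 0.00369 in limma-voom). The interaction was -0.83 (SE 0.21, limma-voom adjusted p = 0.00674). Nlrc5 was the 67NR member with the lowest adjusted p.

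Counted over the members in 4T1 cells, 1 of 10 passed the threshold, H2-Q4, against 9.28% of all 11676 genes tested. The groups did not overlap, with CIX the lower, for 6 of the 10 (H2-K1, H2-D1, H2-Q4, B2m, Tapbp and Psmb8), and this held for 18.7% of all genes. The same 6 had an adjusted p below 0.05, where 20.8% of all genes were lower at that threshold, and no member was higher. The median log2 fold change was -0.41 over the members and -0.0069 over all genes. The count at 0.001 depended on the method, since DESeq2 called 3 members (H2-K1, H2-Q4 and Tapbp) and a common fit of all 16 samples 4 (these and Psmb8). These methods also called more of all genes, 3096 and 2688 of the 11676.

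In 67NR cells 0 of the 8 members that passed the filter on low values were called, against 0.389% of all 11583 genes. At an adjusted p below 0.05 there were 4, all of them higher with CIX (H2-K1, H2-D1, H2-Q4 and Nlrc5), against 8.50% of all genes higher at that threshold. When a sample was left out, H2-Q4 and Nlrc5 stayed below 0.05 in 8 of 8 fits, H2-K1 in 5 and H2-D1 in 1. At an unadjusted p under 0.05, 3802 of the 11583 genes passed, and DESeq2 called 2 members (H2-Q4 and Nlrc5) and 1042 of the 11583 genes. The groups did not overlap, with CIX the higher, for H2-K1, H2-D1, H2-Q4, B2m and Nlrc5, as for 12.7% of all genes. The median log2 fold change was 0.24 over the 8 members and -0.0063 over all genes.

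The response differed between the lines at the threshold for 2 of the 10 members, H2-K1 and H2-Q4, against 7.86% of all 12629 genes. At 0.05 there were 6 (with H2-D1, B2m, Tapbp and Nlrc5), against 14.2% of all genes with a negative term at that threshold. Tap1, Tap2, Psmb8 and Psmb9 had terms of -0.71, -0.42, -0.99 and -1.02, with adjusted p between 0.117 and 0.349 in limma-voom. For Psmb8 and Psmb9 the term rests on the few counts of 67NR cells and is no bound on the size of the difference.

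**Figure D4:**
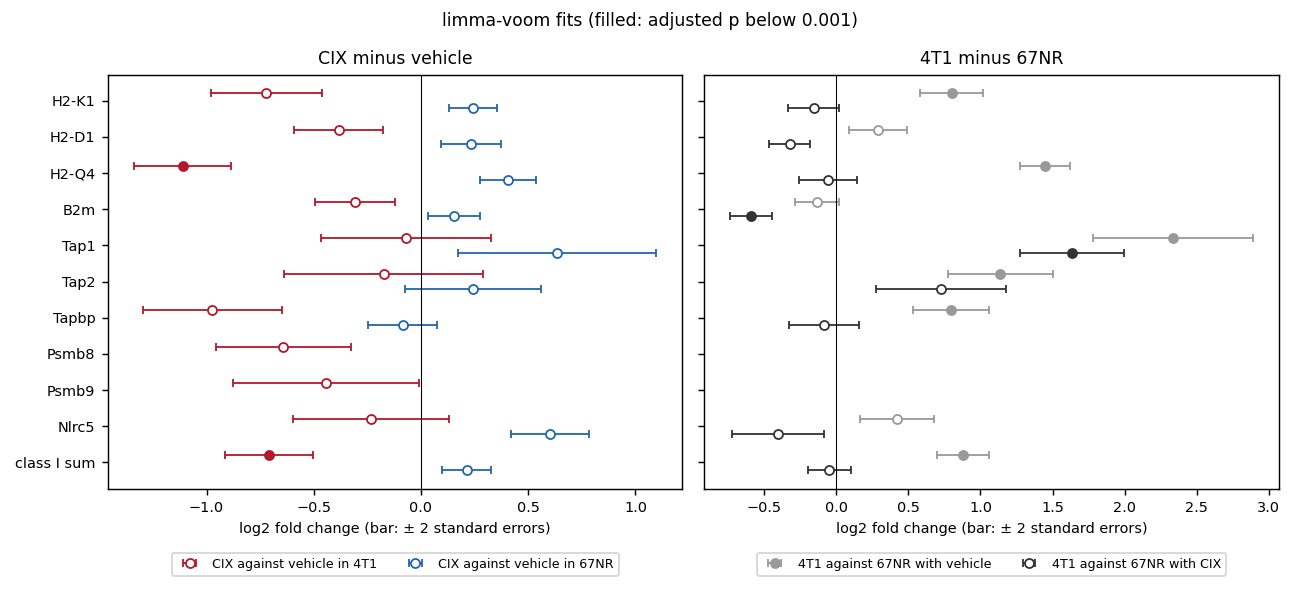
Points are log2 fold changes of the members and of the summed H2 class I genes, with bars of ± 2 standard errors, and filled points passed an adjusted p of 0.001. In the left panel (CIX minus vehicle) the 4T1 values of H2-K1, H2-D1, H2-Q4 and B2m lie left of 0 and the 67NR values right of 0, and in the right panel (4T1 minus 67NR) H2-K1, H2-Q4, Tapbp and the sum are to the right of 0 with vehicle and near 0 with CIX.

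With vehicle alone, 4T1 cells expressed more of 5 members than 67NR cells at the threshold, out of 8 tested, against 40.0% of all 11057 genes called and 20.4% called higher. These were Tap1 (log2 difference 2.33, SE 0.28, adjusted p = 6.38e-05), H2-Q4 (1.45, SE 0.086, 9.74e-07), Tap2 (1.14, SE 0.18, 0.000433), H2-K1 (0.80, SE 0.11, 0.000145) and Tapbp (0.80, SE 0.13, 0.000563), all by limma-voom. H2-D1 (0.29, adjusted p = 0.0296) and Nlrc5 (0.42, adjusted p = 0.0157) did not pass it in limma-voom, and B2m was at -0.13 (SE 0.078, adjusted p = 0.153). The calls of Tap2 and Tapbp were lost when most single samples were left out, with adjusted p values of up to 0.00231 and 0.00247, and they held in 1 and 2 of the 8 such fits. Psmb8 and Psmb9 were too low in 67NR cells for the fit across genes. Psmb8 had 4029 counts in the 4 4T1 samples and 7 in the 4 67NR samples, a ratio of 582 after scaling to library size (95% exact interval 282 to 1449, counting error only). Psmb9 had 348 and 29 counts, a ratio of 12.1 (8.31 to 18.4). Both had a p of 0.0286 in a two-sided exact permutation test, the smallest that 4 against 4 samples allow.

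With CIX the lines differed in fewer members, with Tap1 higher (1.64, SE 0.18, adjusted p = 3.59e-05) and B2m lower in 4T1 (-0.59, SE 0.073, adjusted p = 7.03e-05) by limma-voom, thus 2 of 8, against 34.2% of all 10948 genes. H2-K1, H2-Q4 and Tapbp, all higher in 4T1 cells with vehicle, had log2 differences of -0.16 (SE 0.090), -0.06 (SE 0.10) and -0.08 (SE 0.12) and did not pass. The summed H2 class I genes likewise were higher in 4T1 cells with vehicle (0.88, SE 0.089, adjusted p = 2.24e-05 in limma-voom) and at -0.05 with CIX (SE 0.075, adjusted p = 0.588). With only H2-K1, H2-D1 and H2-Q4 summed, a choice made after seeing the data, these differences were 0.57 (adjusted p = 0.00037) and -0.26 (adjusted p = 0.0107) in limma-voom. H2-D1 (-0.32, adjusted p = 0.00273), Tap2 (0.73, adjusted p = 0.0178) and Nlrc5 (-0.41, adjusted p = 0.046) also missed the threshold in limma-voom. At an adjusted p below 0.05 there were 5 members (Tap1 and Tap2 higher in 4T1, H2-D1, B2m and Nlrc5 lower), against 63.9% of all genes. Psmb8 and Psmb9 remained far above 67NR with CIX, at ratios of 254 (138 to 530.1) and 6.01 (4.32 to 8.57) from 2802 against 10 and 272 against 41 counts (exact permutation p = 0.0286 for each).

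Of the 21 other class I heavy chains on the list, 18 were in the table and 13 were tested in 4T1 cells. At the threshold 5 of the 13 fell and 0 rose, against 9.28% of all genes called. The median log2 fold change of the 13 was -0.72 (-0.0069 over all genes). H2-T23 went from 370 ± 44.9 to 136 ± 17.7 CPM and fell by 1.46 (SE 0.13, adjusted p = 7.35e-05 in limma-voom). This nonclassical molecule presents leader peptides of other class I heavy chains to receptors of natural killer cells. H2-T24 fell by 2.19 (9.78 ± 3.04 to 2.13 ± 0.437 CPM), H2-Q6 by 0.88 (213 ± 25.5 to 117 ± 12.7 CPM), H2-T22 by 0.83 (67.9 ± 7.33 to 38.6 ± 3.86 CPM) and H2-Q2 by 0.72 (95.7 ± 8.51 to 58.9 ± 5.35 CPM), with adjusted p between 0.000496 and 0.00083 in limma-voom. H2-Q6 shared 50.3% of its 31-base words with other genes and H2-T22 51.0%, so these values are uncertain as single genes. In 67NR cells only Mr1 of the 13 tested passed the threshold, against 0.389% of all genes called. It rose from 8.26 ± 0.622 to 21.1 ± 1.64 CPM (log2 difference 1.33, SE 0.10, adjusted p = 0.0004 in limma-voom). At an adjusted p below 0.05 in limma-voom, 5 of the 13 were higher with CIX and 0 lower, against 8.50% of all genes higher. These 5 were Mr1, H2-K2, H2-Q2, H2-Q6 and H2-Q7. Mr1 encodes a class I-like molecule that presents vitamin B metabolites and not peptides. The responses of 5 of the 14 tested in the interaction differed between the lines at the threshold, against 7.86% of all genes. These were H2-K2, H2-Q2, H2-Q6, H2-Q7 and H2-T22 (-0.82 to -1.26, limma-voom), each with a negative term. The annotation marks H2-K2 as a pseudogene, and H2-T10 and H2-Bl of the list as polymorphic pseudogenes.

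**Figure D5:**
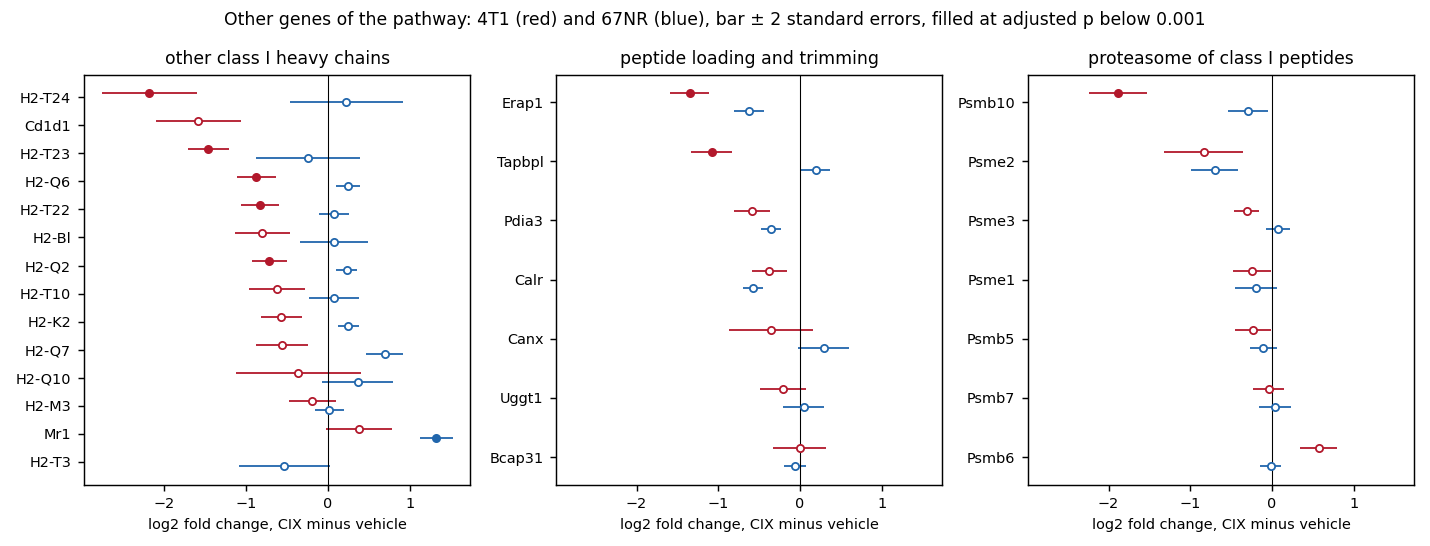
Each point is the log2 fold change of CIX against vehicle, with a bar of ± 2 standard errors, in 4T1 (red) and 67NR cells (blue), for 3 lists of genes around the members. Filled points passed an adjusted p of 0.001. H2-T24, H2-T23, H2-Q6, H2-T22, H2-Q2, Erap1, Tapbpl and Psmb10 are filled and left of 0 in 4T1, and Mr1 is filled and right of 0 in 67NR.

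Of the 16 transcription factors that act at class I promoters, 15 were tested in 4T1 cells. At the threshold 2 fell, a share near the 9.28% of all genes called. Irf9, the DNA-binding part of the complex that answers type I interferon, went from 67.0 ± 14.9 to 20.7 ± 1.58 CPM and fell by 1.69 (SE 0.17, adjusted p = 0.000141 in limma-voom). In 67NR cells Irf9 was at 7.18 ± 0.994 CPM with vehicle and 5.90 ± 0.757 CPM with CIX. Nfyc, a subunit of the factor that binds the Y box, went from 53.8 ± 11.2 to 24.6 ± 3.21 CPM in 4T1 cells and fell by 1.13 (SE 0.17, limma-voom adjusted p = 0.000916). Its partners Nfya and Nfyb had log2 differences of 0.50 and 0.01, neither past the threshold. Stat2, which pairs with Irf9, was at 98.5 ± 23.1 and 56.9 ± 5.93 CPM in 4T1 and at 24.8 ± 1.45 and 38.6 ± 6.35 CPM in 67NR cells, with vehicle and CIX. Its responses differed by -1.40 (SE 0.22, adjusted p = 0.000252 in limma-voom), and it passed the threshold in neither line by itself. In 4T1 cells the log2 difference of Stat2 was -0.79 (adjusted p = 0.00455 in limma-voom), with every CIX sample below every vehicle sample. The paper reports STAT2 as significantly lower with CIX in these cells, also by RT-qPCR, which is the same direction. Rfx5, Rfxap, Rfxank, Irf1, Rela and Nfkb1 did not pass in either line. Ciita, the class II transactivator, had at most 6 counts in any sample.

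Of the 9 interferon receptor and kinase genes, Ifnar2 alone was called in 4T1 cells, again near the share of all genes (9.28%). This subunit of the type I interferon receptor rose by 1.34 on the log2 scale (34.7 ± 5.11 to 88.9 ± 11.6 CPM, SE 0.14, adjusted p = 0.000161 in limma-voom), opposite to Irf9. In 67NR cells Ifnar2 was at 16.8 ± 1.69 and 25.2 ± 2.45 CPM (log2 difference 0.57, limma-voom adjusted p = 0.00721). The paper lists TYK2 beside IFNAR2 among its differentially expressed genes in 4T1 cells. Here Tyk2 had a log2 difference of 0.62 in 4T1 cells (SE 0.13, adjusted p = 0.00426 in limma-voom). Of the 9 class II presentation genes, only Cd74 and H2-DMa were high enough to be tested in 4T1 cells, and neither passed.

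The 6 genes outside the members whose log2 CPM, standardised over the 16 samples, differed least from the mean profile of the 8 members tested in every comparison were H2-Q2 (root mean square difference 0.299), H2-Q6 (0.335), Atl1 (0.351), Rusc1 (0.363), Rita1 (0.366) and Gm8810 (0.375). They were the nearest of 10599 genes apart from members. The 8 members form the mean profile themselves, so their own nearness to it is partly built in. H2-K1 (0.354, rank 4) and H2-Q4 (0.358, rank 5) were the nearest members, then Tapbp (rank 71) and H2-D1 (rank 141). Tap2 (rank 744), Nlrc5 (rank 1117), Tap1 (rank 1612) and B2m (1.30, rank 4769) were farther, so the members did not all follow it closely. Of its words in annotated transcripts, H2-Q6 shared 24.6% with H2-Q4, and H2-Q2 shared 5.9% with H2-D1. The nearness of H2-Q6 and H2-Q2 can thus depend in part on how reads were divided between heavy chains.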

How the data were processed

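mRNA of 16 cultures (4T1 or 67NR, vehicle or CIX) was sequenced single-end from stranded libraries. Salmon 0.12, run by the authors on Ensembl mouse transcripts, gave transcript abundances that tximport combined by gene, and the deposited values are estimated counts without normalization. The submitters' processing notes name GRCh38, but the gene identifiers are mouse. The values are not whole numbers, and how tximport scaled them is not given in the sources used here. The labels do not say whether samples of a group came from separate cultures, whereas the study's methods call them biological replicates.

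Identifiers were matched to GENCODE M21 (32911 of 33072). Counts were rounded, and TPM was computed with the mean transcript length of each gene. A gene was tested if its TPM was below 1 in at most 3 samples of the comparison (for the interaction, in either line). Differences were tested by limma-voom with TMM factors (limma 3.58.1, edgeR 4.0.16, R 4.3.3), fitted over all genes that passed, with calls at a Benjamini-Hochberg adjusted p below 0.001, the threshold of the study. For CIX in 4T1 cells the study reports more called genes than the 1084 of this fit. Its methods do not say which samples were fitted together, and the cause of the gap was not tested. CIX and vehicle were compared within each line, the lines within each treatment, and the responses by an interaction term. The fit was tested on simulated data. Psmb8 and Psmb9, too low in 67NR cells, were compared by exact permutation of log2(CPM + 1) and by exact intervals of their summed counts. Alternatives were edgeR's quasi-likelihood test, DESeq2 1.42.0, its size factors, no scaling, other filters, quality weights, a common fit, a threshold of 0.05, the summed H2 genes and leaving out each sample. Shared words of 31 bases were counted in GENCODE transcripts. Promoter windows came from RefSeq.

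The members, lists and tests were chosen with earlier results of these data known. Named are the 10 members, genes of the pathway lists called in 4T1, in 67NR or in the interaction, the defining and highest markers, the gene of the drug's target, and the 6 genes with the nearest profile. Genes named beside these are the uncalled members of a list.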

Additional observations from a re-analysis of the deposited data

Results flagged for a closer look

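Some members responded to CIX differently in the lines. The difference of the responses on the log2 scale, 4T1 minus 67NR, was past the threshold of the interaction test (limma-voom) for H2-K1 (-0.97), H2-Q4 (-1.52) and the summed H2 class I genes (-0.92). H2-K1, H2-Q4 and the sum each passed it in 16 of 16 fits without a sample. H2-D1 (-0.62) and B2m (-0.46) were lower in all 4 CIX samples than in all 4 vehicle samples of 4T1 cells and higher in all 4 CIX samples of 67NR cells, while their interaction did not pass an adjusted p of 0.001 in limma-voom. No sample stood far from the other 3 of its group in any of the 40 groups of the 10 members by Dixon's ratio, where chance would give 2. The ratio was not taken for the summed H2 class I genes. Among their 4T1 vehicle samples, sample 3 (2319 CPM) lay well below samples 7, 11 and 15 (2922, 2914 and 2972 CPM).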

How the results depend on the processing

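In 4T1 cells 1 member was called. The count was 3 with DESeq2 and with sample quality weights, 2 without scaling, 4 with all 16 samples in a common fit and 6 at a threshold of 0.05, and it ranged from 1 to 2 when a sample was left out (2 without vehicle sample 3). The summed H2 class I genes were at -0.65 in 4T1 without a filter (adjusted p = 0.00123 in limma-voom) and at -0.58 with only H2-K1, H2-D1 and H2-Q4 summed, a choice made after seeing the data (adjusted p = 0.00192), so that the call was lost in both. Leaving out a sample gave -0.79 to -0.67 for the sum. Tap1 in 4T1 ranged from -0.25 to 0.037, at or above 0 without CIX sample 8 (0.0016) or vehicle sample 15. In 67NR cells, where 0 members were called, DESeq2 gave 2 and the threshold of 0.05 gave 4, at which the summed genes passed too (0.21). The sum stayed below 0.05 in 2 of 8 fits without a sample. Its limma-voom adjusted p was 0.0906 in a common fit and 0.0602 without scaling. The interaction (2 members) gave 1 with the H2 genes replaced by their sum, 5 with DESeq2 and with quality weights, 6 at 0.05, and 2 to 4 when a sample was left out (4 without 4T1 vehicle sample 3). With vehicle, the 5 members called ranged from 3 to 5 when a sample was left out, and were 3 without any of the 4 67NR samples or 4T1 samples 7 or 15. With CIX, the count of 2 became 4 without a filter and 5 at 0.05, and with quality weights the summed genes (0.018) and H2-Q4 (0.032) changed sign around 0. The cause of these shifts was not tested.

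Over all genes, the calls went from 1084 to 3096 with DESeq2 and 4984 at 0.05 in 4T1, from 45 to 1042 and 2056 in 67NR, and from 993 to 1981 and 3701 in the interaction. At 0.05 they went from 4422 to 7456 with vehicle and from 3746 to 6991 with CIX. Quality weights gave 2523, 247 and 1915 calls in 4T1, 67NR and the interaction, and a common fit 2688 and 151 in the lines. Leaving out a sample gave 269 to 972 calls in 4T1 and 0 to 75 in 67NR. Without scaling, higher calls in 4T1 were 509 and lower ones 529, against 622 and 462. No paired analysis was made, because each sample carries its own number from 1 to 16 in the labels and no number is shared between groups. Numbers 1 to 4, 5 to 8, 9 to 12 and 13 to 16 each hold 1 sample of every group, but no label names these as batches or days, and no block was fitted on that order. What such a block would change was not tested. Depth limits Psmb8 and Psmb9 in 67NR cells, where they had at most 14 counts per sample.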
